A study of Homo sapiens with 12 samples.

Results

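Genes of homologous recombination and DNA damage repair were described in an established line of non-small cell lung cancer, NCI-H1299, grown in culture or as a xenograft tumour. The genes came from a list of 37 repair genes, matched to the array by gene symbol or older synonym, and 33 of the 37 were represented. Each gene was read from 1 of its probe sets, the brightest on average among those with a single symbol. BRCA2, FANCA and FANCD2 had no probe set under that symbol in the array annotation used, and the probe sets of PMS2 carried a second symbol, so these 4 genes were not analysed here.

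The 12 arrays fall into 4 groups of 3. Parental culture was the line in medium with serum. Spheroid culture was the line after 7 to 10 days in a stem-cell medium, when floating cells were moved to flasks that hinder attachment. The parental xenografts and the spheroid xenografts were tumours grown from each of these cultures. The labels name no engineered allele and no drug in any group. All samples derive from 1 cell line, and the sources used here do not give the host animal or the tumour age. The titles speak of biological replicates, but nothing says that the samples came from separate cultures or animals. The p-values then measure only the spread between these samples, which may be technical.

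Homologous recombination mends a broken chromosome by copying the intact sister. The MRE11-RAD50-NBN complex senses the break, nucleases such as EXO1 trim its ends, and BRCA1, PALB2, BRCA2, RAD51C, XRCC2 and XRCC3 then act in the search for and copying of the intact strand. Fanconi anaemia proteins direct the repair of DNA crosslinks, the end joining factors ligate breaks without a template, and excision repair removes damaged bases or bulky lesions.

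Every represented gene read above the lower quartile of all values on all 12 arrays. The arrays of a group were not alike in the repair genes. Parental culture replicate 1 held the lowest of the 3 values for 26 of the 33 genes, parental culture replicate 2 the highest for 27, and spheroid culture replicate 1 the lowest for 26. The same parental culture arrays stood apart in the 18S control probe set, at 6.96 and 10.5 against 12.2 to 13.3 on the other arrays. The GAPDH control read higher at its 3′ than its 5′ end by 0.493 in parental culture replicate 1 and 0.019 to 0.129 elsewhere. For the actin control this was 0.779 there and 0.773 in spheroid culture replicate 1. It was 0.642 in spheroid xenograft replicate 3, the highest of its group in 25 genes, and 0.178 to 0.381 elsewhere. The part of RNA quality was not tested. The main differences that use the parental cultures are given with all arrays and without parental culture replicates 1 and 2. The latter fit leaves 1 parental culture array, so its differences are given by size only. Vimentin (VIM) was high in all groups, with means from 14.2 to 14.7, while the epithelial markers EPCAM and CDH1 lay below the lower quartile on every array. The keratin genes KRT8 and KRT18 were expressed, with parental culture means of 8.96 and 12.56. KRT8 fell in spheroid culture (-1.43, limma adjusted p = 0.0110), and both fell in parental xenografts (-1.77 and -1.71, limma adjusted p = 0.00278 and 0.0191), against parental culture. Of 9 fibroblast markers, FAP and COL3A1 rose in the parental xenografts against parental culture, by 2.20 and 2.06 on the log2 scale. FAP was also lower in spheroid than in parental xenografts (-1.35, limma adjusted p = 0.0365). It was called in the interaction of spheroid origin and xenograft growth too (-1.94, limma adjusted p = 0.0416). The summed level of those 9 markers ran from 53.5 to 57.0 in parental culture, 56.4 to 57.9 in spheroid culture, 58.4 to 62.8 in the parental xenografts and 57.5 to 58.3 in the spheroid ones. None of 6 endothelial, 5 myeloid and 3 lymphocyte markers was called in any comparison.

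XRCC3 was the 1 gene of the 33 that passed the test in any comparison, and it fell in spheroid culture and in parental xenografts against parental culture, where 2.46% and 3.47% of all genes were called. It encodes a protein that partners RAD51C and acts in the later steps of recombination. Its log2 expression was 7.80, 7.91 and 7.66 on the 3 parental culture arrays. It was 6.30, 6.67 and 6.76 in spheroid culture. It was 6.52, 6.56 and 6.64 in the parental xenografts and 6.83, 6.70 and 7.09 in the spheroid xenografts. All 9 arrays of the other groups lay below all 3 parental culture arrays. The group means were 7.79 ± 0.12, 6.58 ± 0.24, 6.57 ± 0.061 and 6.87 ± 0.20 (SD, n = 3 each) in the order just given, and spheroid culture and parental xenografts did not differ beyond their spread.

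In spheroid culture XRCC3 was 2.32-fold lower than in parental culture, a log2 difference of -1.22 with a standard error (SE) of 0.16 and a Benjamini-Hochberg adjusted p of 0.00436 (limma, over 19775 genes). In parental xenografts it was 2.33-fold lower than in parental culture (-1.22, SE 0.16, limma adjusted p = 0.00250). These comparisons share the parental culture arrays, so they are not independent of each other. With parental culture replicates 1 and 2 left out, which leaves 1 parental culture array, the differences were -1.09 and -1.09. Leaving out each array in turn kept both calls in 12 of 12 fits, but the first was lost (adjusted p = 0.0652) when the 2 cultures were fitted without the xenografts. Spheroid xenografts differed from parental xenografts by 0.30 (limma adjusted p = 0.807) and from spheroid culture by 0.29 (limma adjusted p = 0.773).

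The interaction is the spheroid minus parental difference of XRCC3 in xenografts less the same difference in culture. It uses the same parental culture arrays as the differences above, so it is not independent of them. It was 1.52 (SE 0.22, limma adjusted p = 0.0340). This call was lost, with adjusted p up to 0.104, without spheroid culture replicate 2 or 3, parental xenograft replicate 1 or 2, or any single spheroid xenograft, and kept in the other 5 of 12 such fits. It was also lost with each array centred on its median (adjusted p = 0.0805). Without parental culture replicates 1 and 2 together the interaction was 1.39. XRCC3 has 1 probe set on the array, of a kind whose probes can match more than 1 transcript (name ending in _s_at), so no second probe set bears on these values. In bulk RNA, fewer cells that express a gene and less of its RNA per cell cannot be told apart. A list of 20 proliferation markers had median differences of -0.22 in spheroid culture and -0.31 in parental xenografts against parental culture, with none called in either. The part of the proliferation markers, the keratin genes and the fibroblast markers in the XRCC3 result was not tested.

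**Figure D1:**
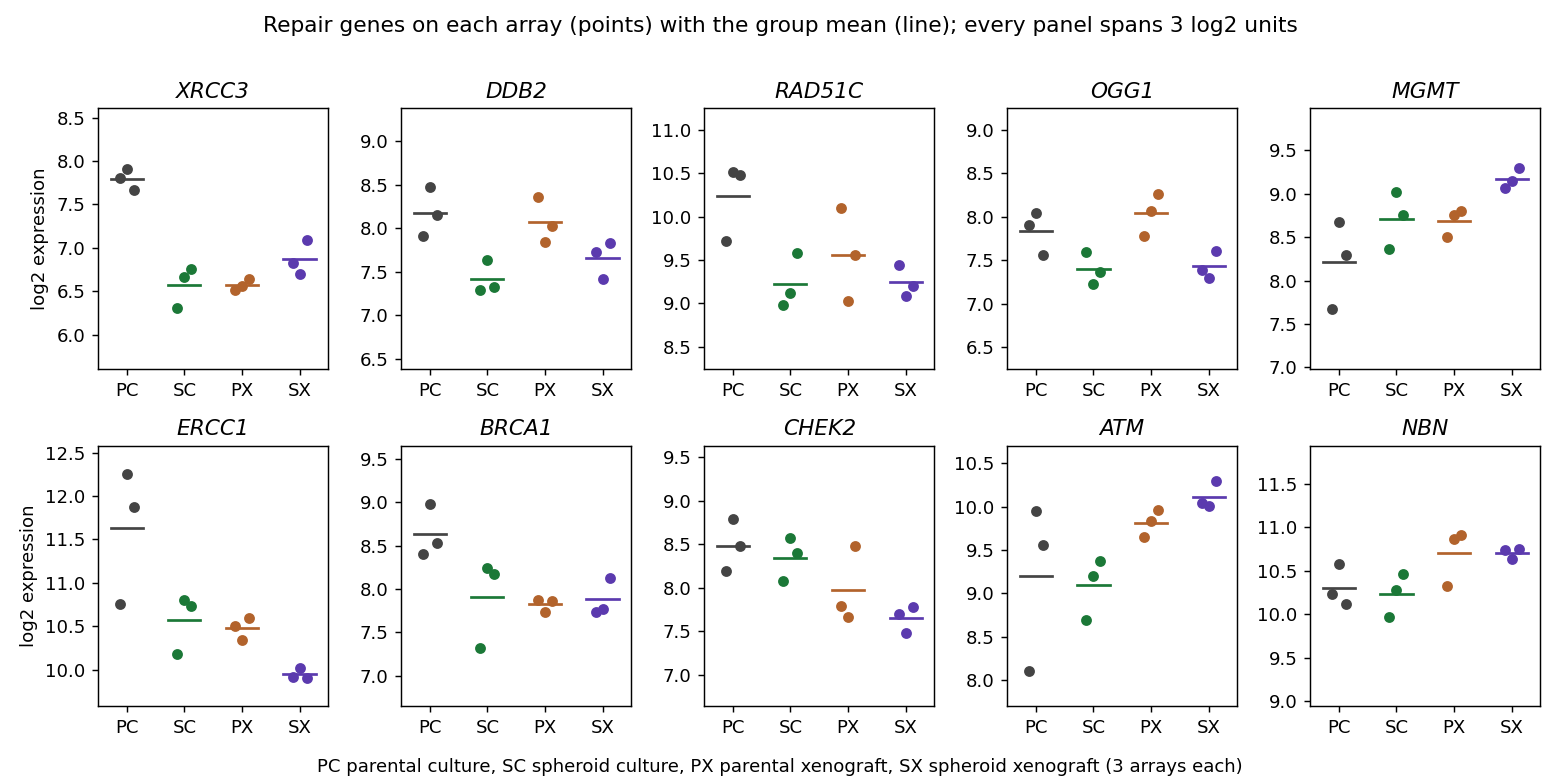
Log2 expression (vertical axis, each panel spanning 3 units) of the 10 repair genes described array by array, for the parental (PC) and spheroid (SC) cultures and the parental (PX) and spheroid (SX) xenografts; points are arrays and lines group means. XRCC3 lies between 7.66 and 7.91 in parental culture and between 6.30 and 7.09 on all other arrays.

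The plot of 10 genes by array shows XRCC3 beside the genes with the lowest p among those whose groups did not overlap. The tight cluster of the XRCC3 parental cultures contrasts with ATM, where the parental cultures spread from 8.11 to 9.95.

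The promoter of XRCC3 is shown because XRCC3 passed the test, and that of ERCC1 because 1 of its probe sets, chosen after its values were seen, was called in the same comparisons. The windows are the 250 bases before a transcript start in the RefSeq promoter table, build GRCh38.p14, and capitals mark CCAAT, the letters of the CCAAT box, on either strand (ATTGG on the printed strand where the match is on the other). XRCC3 lies at chr14:103715452-103715701 and the last of 3 listed ERCC1 starts at chr19:45423529-45423778, both on the minus strand and printed 5′ to 3′.
XRCC3: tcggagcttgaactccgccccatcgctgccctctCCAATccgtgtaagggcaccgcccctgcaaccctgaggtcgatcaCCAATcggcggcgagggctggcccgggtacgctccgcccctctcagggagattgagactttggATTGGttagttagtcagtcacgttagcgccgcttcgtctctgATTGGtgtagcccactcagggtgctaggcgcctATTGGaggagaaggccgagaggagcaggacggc
ERCC1: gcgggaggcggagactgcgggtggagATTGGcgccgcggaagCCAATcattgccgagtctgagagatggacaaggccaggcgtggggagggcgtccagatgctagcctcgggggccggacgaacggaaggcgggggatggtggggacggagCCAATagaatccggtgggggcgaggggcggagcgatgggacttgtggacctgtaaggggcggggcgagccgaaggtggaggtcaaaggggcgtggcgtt
The XRCC3 window held 5 CCAAT matches and was 62% G or C. The ERCC1 window held 3 matches at 68% G or C, and the other ERCC1 starts held none.

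The table held windows for 30 of the 33 genes, with 49 windows in all because some genes have several starts. CCAAT occurred in 22 of the 49 windows (44.9%) against 11240 of 35116 windows in the table (32%). With 5 or more matches, XRCC3 was the 1 window of the 49, and 112 of 35116 windows (0.319%) in the table had as many. The cut of 5 was the count of the XRCC3 window itself. That window was bound to reach it, so no comparison is drawn from these shares. The cell cycle homology letters TTTGAA occurred in 4 of the 49 (8.16%) against 13.3% of all windows. The E2F letters TTTCGCGC, TTTGGCGC, TTTCCCGC, TTTGCCGC or TTTGGCGG, on either strand, occurred in 3 of the 49 (6.12%) against 3.29%. No motif overlaps another among the printed matches, and a match describes the letters only.

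The other recombination mediators gave lower means in spheroid than in parental culture for BRCA1 and RAD51C, but neither passed the test. BRCA1, the tumour suppressor that acts with BARD1 and PALB2 in recombination, read 8.40, 8.98 and 8.53 in parental culture and 7.32, 8.24 and 8.17 in spheroid culture. It read 7.87, 7.74 and 7.86 in parental xenografts and 7.73, 7.77 and 8.13 in spheroid xenografts. On the probe set that stood for it, the parental culture values lay above all others. The differences from parental culture were -0.73 (SE 0.24, limma adjusted p = 0.159) in spheroid culture and -0.81 (SE 0.24, limma adjusted p = 0.0945) in parental xenografts. The xenograft difference was called without spheroid culture replicate 1. Without parental culture replicates 1 and 2 the differences were -0.62 and -0.71. The other BRCA1 probe set, 211851_x_at, read 6.76, 8.35 and 8.26 in parental culture, and that replicate 1 value lay below every other array. Its differences from parental culture were -0.25 (SE 0.35) in spheroid culture and -0.29 (SE 0.35) in parental xenografts. RAD51C, which forms complexes with XRCC2 and XRCC3 among others, read 9.72, 10.51 and 10.47 in parental culture. It read 8.98, 9.11 and 9.58 in spheroid culture, 10.10, 9.02 and 9.55 in parental xenografts, with 9.45, 9.09 and 9.20 in spheroid xenografts. The other RAD51C probe set, 206066_s_at, read 9.12, 9.46 and 9.57 in parental culture and 8.70, 9.03 and 9.24 in spheroid culture. Those values overlap, with a difference of -0.39 (SE 0.17). On the probe set that stood for the gene, the 2 cultures did not overlap, whereas parental xenografts overlapped both. The culture difference was -1.01 (SE 0.29, limma adjusted p = 0.0946), and it was called without parental culture replicate 1. Without replicates 1 and 2 it was -1.25.

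The remaining mediators had group means that differed little beside their spread. PALB2, the bridge between BRCA1 and BRCA2, had the largest positive culture difference of the list at 0.58 (limma adjusted p = 0.340), from 7.87 ± 0.53 to 8.45 ± 0.38. BARD1, the partner of BRCA1, ranged over group means of 9.51 to 9.85, and RAD51AP1, which promotes strand pairing, over 10.26 to 10.66. RAD54L, a motor protein that helps strand invasion, ranged over 8.64 to 8.83, and XRCC2, a further recombination factor, over 7.61 to 7.84. None of these was called in any comparison.

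The 4 represented Fanconi anaemia genes all had lower means in spheroid culture and in parental xenografts than in parental culture, with none called. FANCC, part of the core complex, went from 8.42 ± 0.30 in parental culture to 7.85 ± 0.31 in spheroid culture (-0.57, limma adjusted p = 0.187). FANCE, which links the core complex to its substrate, went from 8.90 ± 0.28 in parental culture to 8.22 ± 0.31 in parental xenografts (-0.68, limma adjusted p = 0.125). FANCG, another core member, had means of 9.52 and 9.07 in the parental and spheroid cultures and 9.20 and 8.96 in the parental and spheroid xenografts. FANCI, which is ubiquitinated together with FANCD2, had means of 9.66, 9.37, 9.38 and 9.54 in that order. The median differences of the 4 were -0.48 in spheroid culture and -0.30 in parental xenografts, against 0.07 and -0.01 over all genes. They were -0.65 and -0.46 without parental culture replicates 1 and 2, with all 4 genes negative. A separate list of Fanconi pathway genes, with 12 represented, had medians of 0.01 in spheroid culture, with 7 of 12 positive, and -0.15 in parental xenografts, with 9 of 12 negative.

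Among the genes of break sensing and resection, NBN gave different answers by probe set. NBN is the subunit of the MRE11 complex that recruits ATM. On the probe set that stood for the gene it read 10.23, 10.58 and 10.12 in parental culture and 9.97, 10.28 and 10.46 in spheroid culture. It read 10.33, 10.86 and 10.92 in parental xenografts and 10.74, 10.64 and 10.75 in spheroid xenografts. Spheroid xenografts lay above spheroid culture on all arrays, by 0.47 (SE 0.19, limma adjusted p = 0.608), and all 5 NBN probe sets had that sign. In culture the same probe set gave -0.07, while the other 4 gave positive differences. Probe set 202905_x_at read 9.00, 9.31 and 9.36 in parental culture and 10.06, 9.92 and 10.07 in spheroid culture. It was chosen after its values were seen, and it rose by 0.79 (SE 0.15) with a limma adjusted p of 0.0267 when 41091 probe sets were each tested, of which 0.557% were called higher. Without parental culture replicates 1 and 2 it was 0.65.

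The other genes of this step were not called. MRE11, the nuclease of the complex, had means of 8.74 ± 0.58 in parental culture, 8.67 ± 0.35 in spheroid culture, 8.22 ± 0.055 in the parental xenografts and 8.55 ± 0.19 in the spheroid ones. RAD50, its ATPase partner, ranged over group means of 9.78 to 10.40, with an SD of 0.70 in parental culture. EXO1, a resection nuclease, ranged over 8.56 to 8.90, and BLM, the helicase mutated in Bloom syndrome, over 8.34 to 8.65.

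ATM and CHEK2, a kinase and its target in the break response, had opposite signs between spheroid xenografts and spheroid culture. ATM read 8.11, 9.95 and 9.55 in parental culture, 8.70, 9.20 and 9.38 in spheroid culture, 9.65, 9.83 and 9.96 in parental xenografts, with 10.04, 10.00 and 10.29 in spheroid xenografts. Spheroid xenografts lay above spheroid culture on every array, by 1.02 (SE 0.37, limma adjusted p = 0.502), and 4 of 6 ATM probe sets had that sign. ATM was called (adjusted p = 0.0177) when these 2 groups were fitted alone with the replicate number as a block. CHEK2 read 8.19, 8.79 and 8.48 in parental culture, 8.08, 8.57 and 8.39 in spheroid culture, 7.79, 7.66 and 8.48 in parental xenografts, with 7.70, 7.48 and 7.78 in spheroid xenografts. Its spheroid xenografts lay below both cultures, by -0.69 (SE 0.23, limma adjusted p = 0.432) against spheroid culture. ATR, the kinase of stalled replication forks, ranged over group means of 8.86 to 9.18. CHEK1, its target, ranged over 9.00 to 9.43, with an SD of 0.89 in parental culture.

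No end joining or mismatch repair gene was called. XRCC5 and XRCC6, the subunits of the Ku ring that binds broken ends, ranged over group means of 12.30 to 12.69 and 12.08 to 12.46. XRCC4, the scaffold of the ligase complex, ranged over 8.22 to 8.88. LIG4, the ligase, read 7.47 in parental culture replicate 2 and between 5.61 and 6.24 on all other arrays. MSH6, which takes part in mismatch recognition, ranged over 11.10 to 11.38.

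OGG1, the glycosylase that removes oxidised guanine, had the lowest p of the list between the xenograft types. It read 7.78, 8.07 and 8.27 in parental xenografts and 7.39, 7.30 and 7.61 in spheroid xenografts, which do not overlap. In culture it read 7.90, 8.04 and 7.56 in parental cells and 7.59, 7.23 and 7.37 in spheroid cells. The xenograft difference was -0.61 (SE 0.18, limma adjusted p = 0.273), and 2 of 3 OGG1 probe sets had that sign. It turned to 0.16 when probe sets of the _x_at and _s_at kinds were dropped. PARP1, the sensor of strand breaks, ranged over group means of 9.27 to 9.43, and UNG, which removes uracil, over 9.67 to 9.85.

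Nucleotide excision repair held ERCC1, the gene with the most negative uncalled difference from parental culture. ERCC1 is the partner of the ERCC4 nuclease, which cuts 5′ of a lesion. On the probe set that stood for it, it read 10.76, 12.25 and 11.87 in parental culture and 10.18, 10.80 and 10.73 in spheroid culture. It read 10.50, 10.35 and 10.60 in parental xenografts and 9.92, 10.02 and 9.91 in spheroid xenografts. Parental culture replicate 1 lay within the range of spheroid culture, while replicates 2 and 3 lay above every array of the other groups. The differences from parental culture were -1.06 (SE 0.31, limma adjusted p = 0.104) in spheroid culture and -1.14 (SE 0.31, limma adjusted p = 0.0671) in parental xenografts. Without parental culture replicate 1 both were called, and the second was then -1.58 (adjusted p = 0.00238). Without replicates 1 and 2, which leaves 1 parental culture array, they were -1.30 and -1.39.

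All 3 ERCC1 probe sets had the same sign in each comparison. Probe set 228131_at, singled out after its values were seen, read 9.93, 9.88 and 9.80 in parental culture, with no low value in replicate 1. It read 8.00, 7.84 and 7.71 in spheroid culture, 7.87, 7.61 and 7.99 in parental xenografts, with 7.54, 7.60 and 7.84 in spheroid xenografts. All 9 other arrays lay below parental culture. With each of 41091 probe sets tested, it was 4.05-fold lower in spheroid culture (-2.02, SE 0.14, limma adjusted p = 0.000515) and 4.13-fold lower in parental xenografts (-2.05, SE 0.14, limma adjusted p = 0.000147). Its interaction, which uses the same parental culture arrays, was 1.86 (SE 0.20, limma adjusted p = 0.0121). Without parental culture replicates 1 and 2 the 3 values were -1.95, -1.98 and 1.79. At that level 1.10%, 0.949% and 0.0341% of probe sets were called in the same comparisons and directions. Probe set 203719_at gave -1.32 (SE 0.26, limma adjusted p = 0.0319) in spheroid culture, from 9.75, 10.93 and 10.70 to 8.89, 9.13 and 9.42. Without the same 2 arrays it gave -1.56. In parental xenografts it gave -1.09 (SE 0.26) and was not called. Its interaction was 0.82 (SE 0.37), and that of the probe set that stood for the gene was 0.52 (SE 0.44), with neither called.

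**Figure D2:**
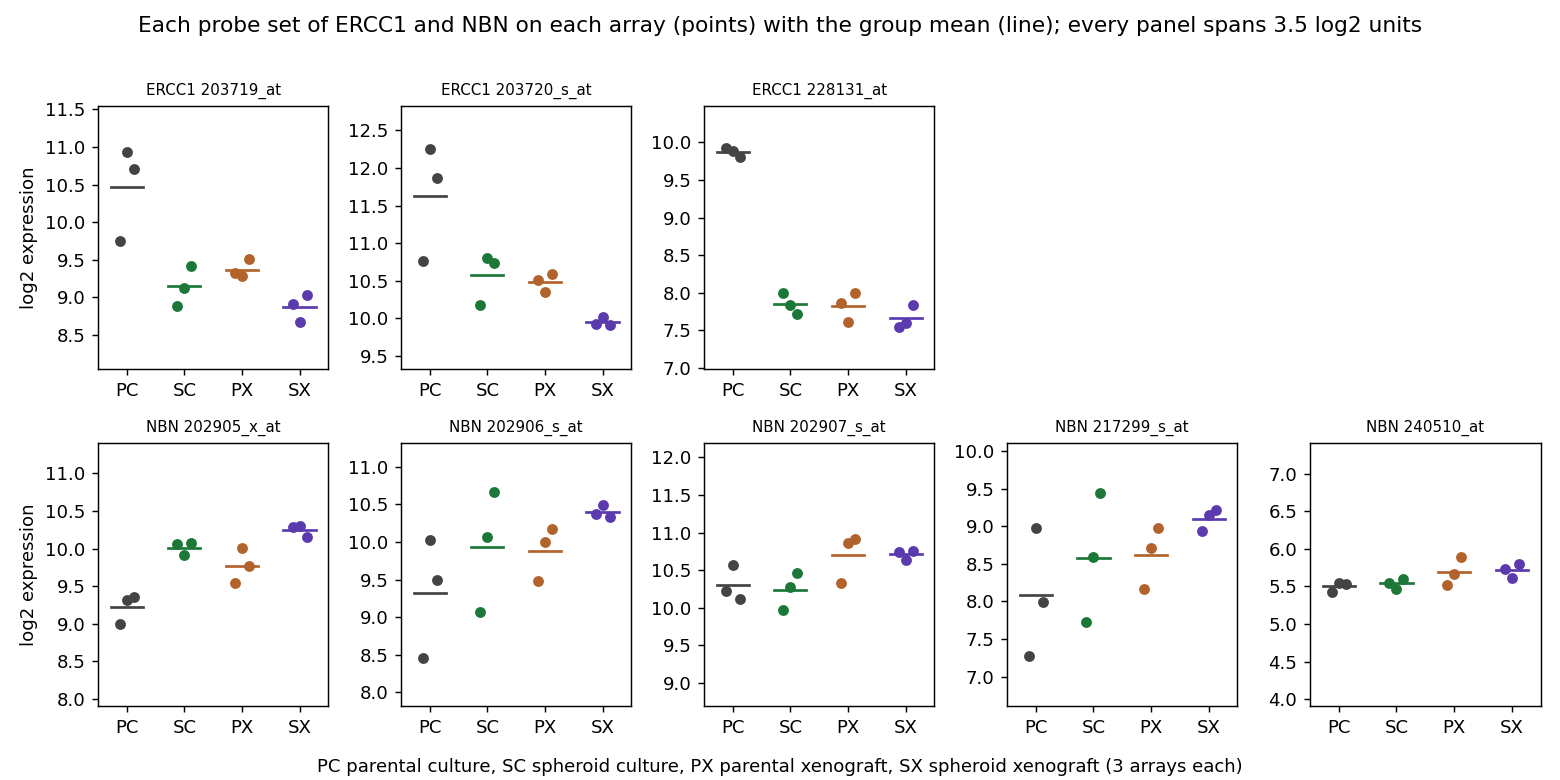
Log2 expression (vertical axis, each panel spanning 3.5 units) on each probe set of ERCC1 and NBN for the parental (PC) and spheroid (SC) cultures and the parental (PX) and spheroid (SX) xenografts; points are arrays and lines group means. On 228131_at the parental cultures sit at 9.80 to 9.93 and all other arrays at 7.54 to 8.00.

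The plot of single probe sets shows how far the reading of ERCC1 and NBN depends on the probe set. The 3 ERCC1 panels share a drop from parental culture, whereas the NBN panels differ in sign in culture.

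DDB2, which recognises ultraviolet lesions, read 7.92, 8.47 and 8.15 in parental culture, 7.29, 7.63 and 7.33 in spheroid culture, 8.36, 7.84 and 8.02 in parental xenografts, with 7.72, 7.42 and 7.83 in spheroid xenografts. The spheroid groups lay below the parental groups of the same setting on all arrays. The differences were -0.76 (SE 0.19, limma adjusted p = 0.0655) in culture and -0.42 (SE 0.19, limma adjusted p = 0.692) in xenografts, and the first was called without parental culture replicate 1. Without replicates 1 and 2 the culture difference was -0.73. XPC, the damage sensor of the same pathway, ranged over group means of 8.86 to 9.26.

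MGMT, which reverses alkylation of guanine directly, read 7.67, 8.67 and 8.30 in parental culture, 8.36, 9.03 and 8.75 in spheroid culture, 8.50, 8.76 and 8.80 in parental xenografts, with 9.07, 9.14 and 9.29 in spheroid xenografts. Every spheroid xenograft lay above every other array. The differences were 0.48 (SE 0.24, limma adjusted p = 0.757) between the xenograft types and 0.50 (SE 0.24, limma adjusted p = 0.388) between the cultures.

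Over the 33 genes, between the cultures 1 was called, XRCC3 (lower), where 2.46% of all genes were called and 1.58% were called lower. The median difference was -0.14 against 0.07 over all genes, with 22 of 33 negative, but it was 0.07 without parental culture replicate 2 and 0.05 without spheroid culture replicate 1. In 6 of 33 genes (18.2%) the groups did not overlap, all lower in spheroids, against 13.8% of all genes in either direction and 6.56% lower. Between the xenograft types none of the 33 was called by limma, 1 had an unadjusted p under 0.05, and 0.233% of all genes were called. There 12 of 33 (36.4%) did not overlap, 5 higher and 7 lower, against 16.5% of all genes, 9.30% higher and 7.21% lower. The median difference was 0.04, with 18 of 33 positive, against 0.02 over all genes, and it was -0.03 without parental xenograft replicate 2 and -0.04 without spheroid xenograft replicate 3. With the replicate number as a block and these 2 groups fitted alone, 2.48% of all genes and none of the 33 were called, against 0.814% of all genes in the same fit without the block.

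Between parental xenografts and parental culture 1 of 33 was called, XRCC3 (lower), against 3.47% of all genes, with 1.48% called lower and 2.00% called higher. The groups did not overlap in 4 of 33 (12.1%), all lower, against 13.6% of all genes and 6.28% lower. The median difference was -0.03 against -0.01 over all genes, and it was 0.06 without parental culture replicate 2 and 0.02 without parental xenograft replicate 2. Between spheroid xenografts and spheroid culture none was called by limma, 3 had an unadjusted p under 0.05, and 0.0202% of all genes were called. There 8 of 33 (24.2%) did not overlap, 4 higher and 4 lower, against 18.7% of all genes, 8.85% higher and 9.85% lower. The median was 0.105 against -0.05 over all genes, with 23 of 33 positive, and it was -0.02 without spheroid culture replicate 1. With the block and these 2 groups alone, 2.99% of all genes and 1 of the 33, ATM, were called, against 0.592% of all genes without the block. In the interaction 1 of 33 was called, XRCC3 (higher), against 0.137% of all genes and 0.0657% called higher. The median interaction was 0.10 against -0.04 over all genes, and it was -0.06 without parental culture replicate 2.

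**Figure D3:**
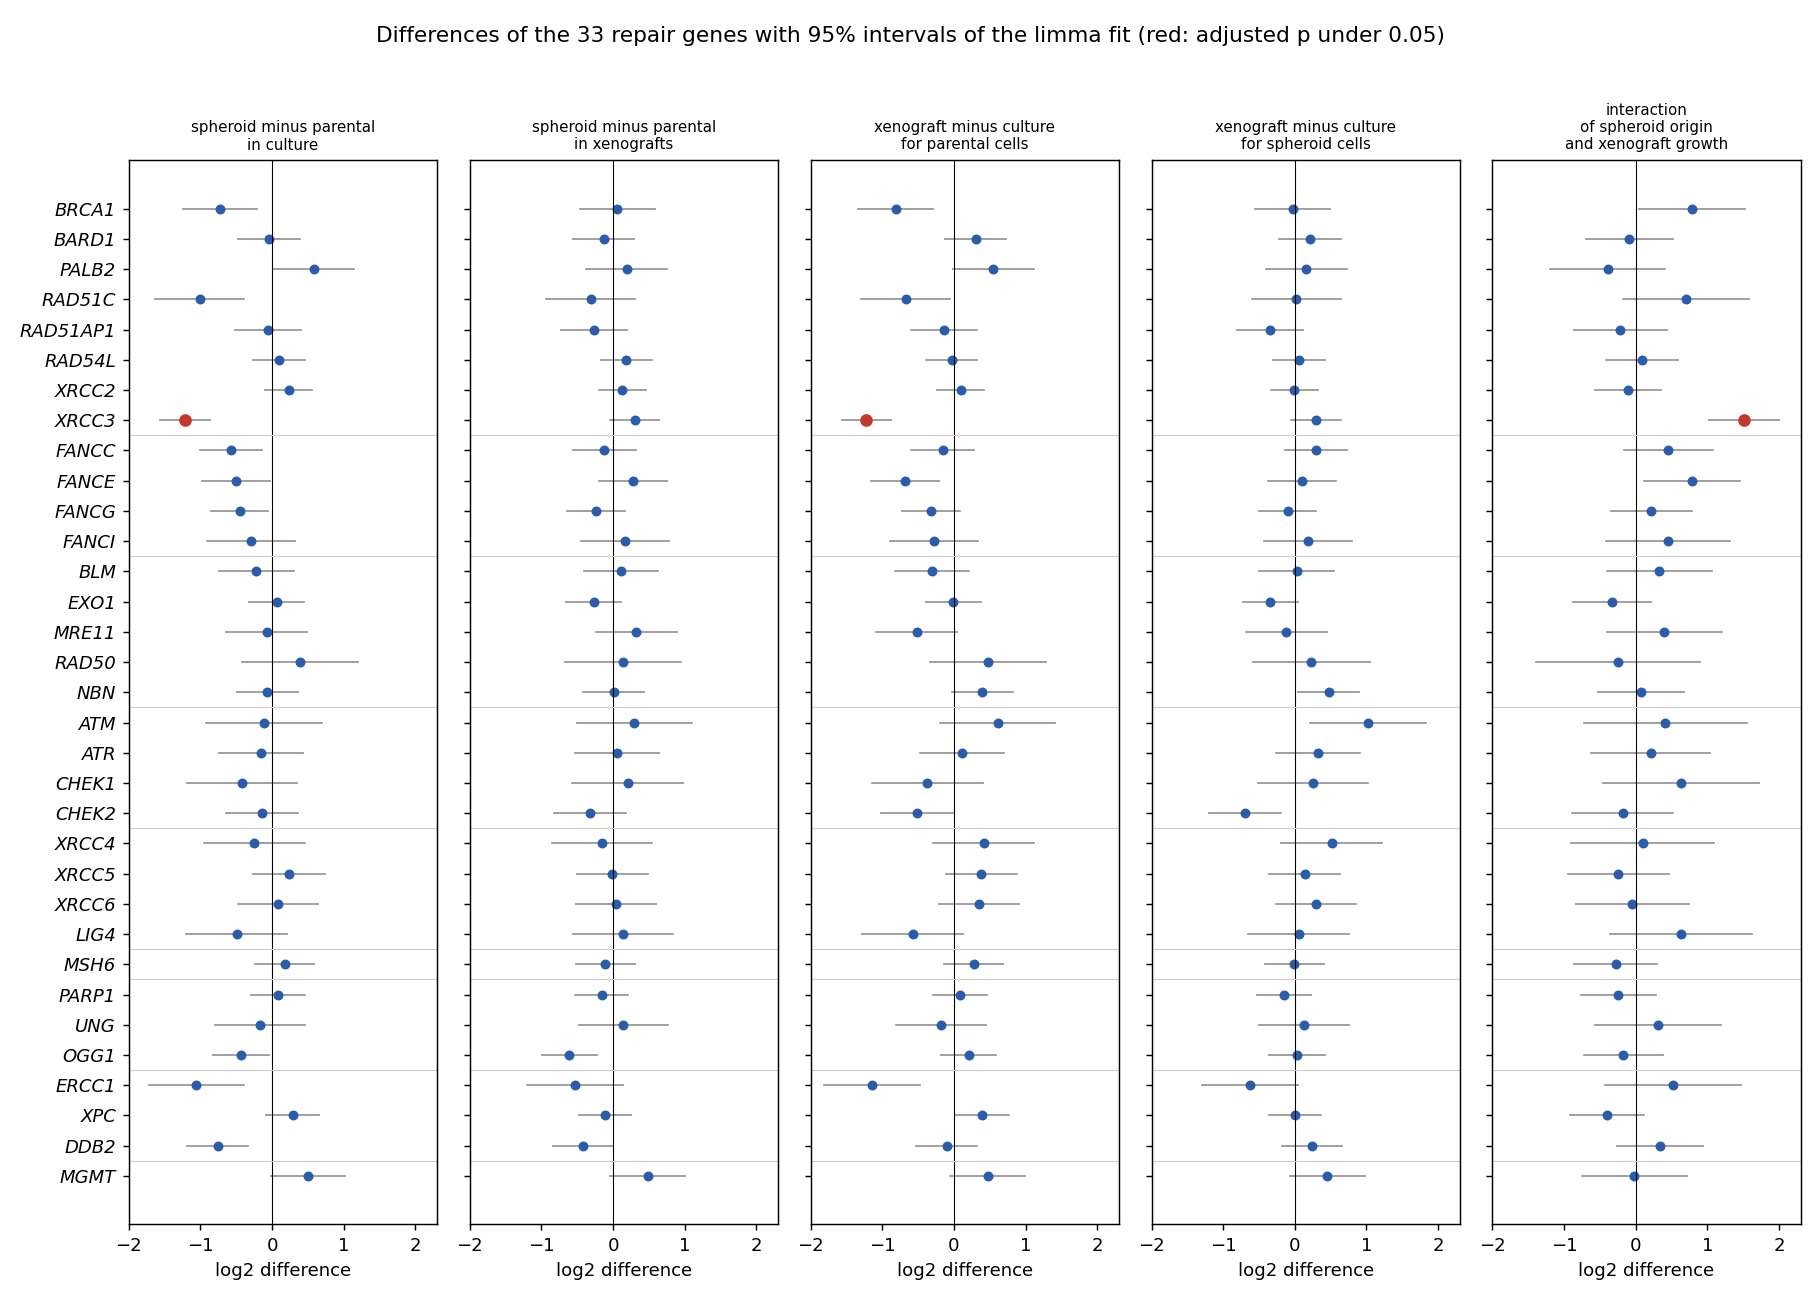
Log2 differences (horizontal axis) of the 33 repair genes in each of the 5 comparisons, with points for the limma estimate, bars for its 95% interval and red for adjusted p under 0.05. XRCC3 is red in 3 panels, at -1.22, -1.22 and 1.52, and all 3 use the same parental culture arrays.

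The plot of differences shows the width of the intervals as well as their centres. Among genes not called, the 95% interval lay within a 2-fold change either way for 22 of 32 between the cultures and 30 of 33 between the xenograft types. It did so for 20 of 32 between parental xenografts and culture, 27 of 33 between spheroid xenografts and culture, and 16 of 32 in the interaction. For the rest, the interval reached past a 2-fold change, so that a change of that size is not excluded.

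**Figure D4:**
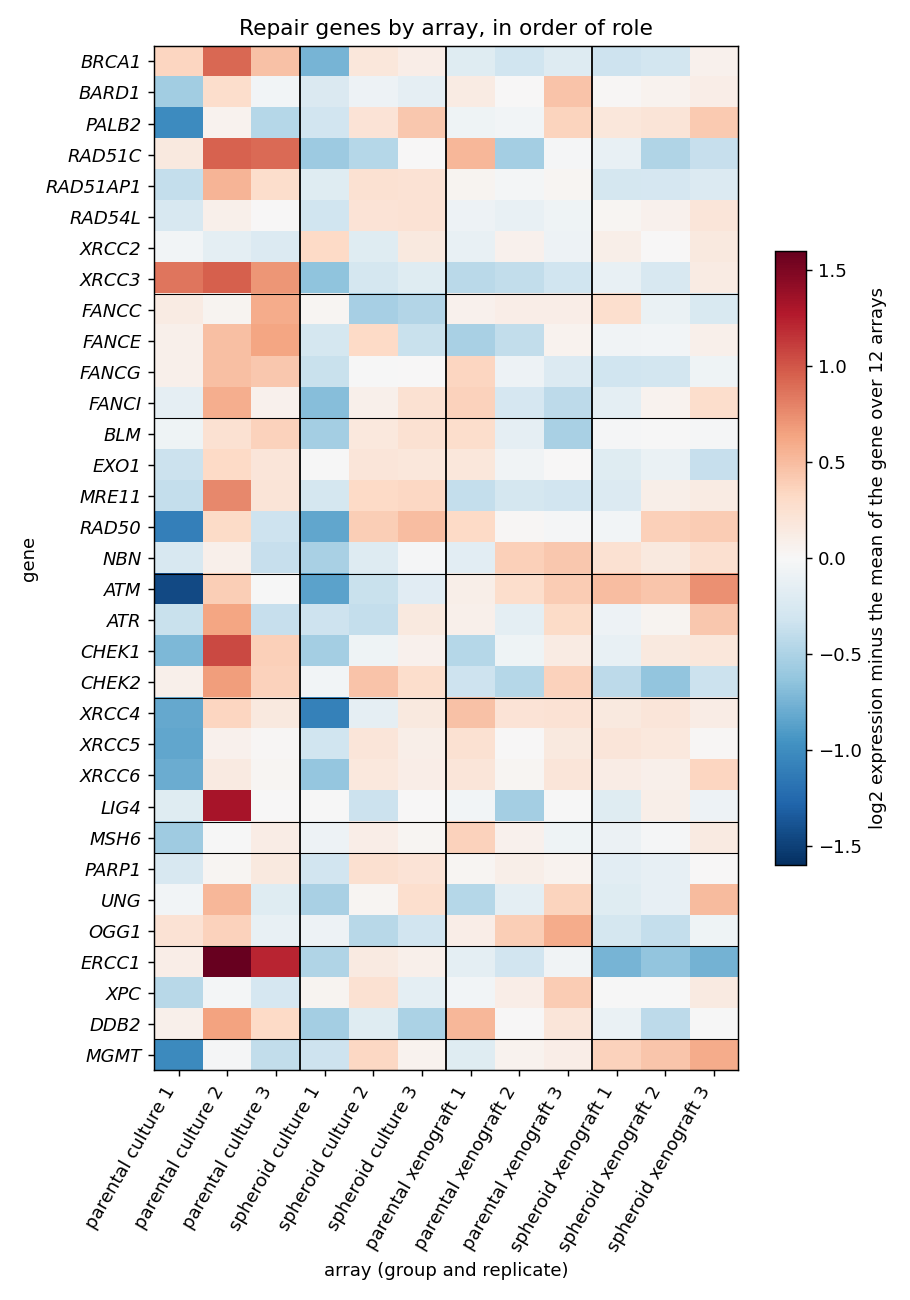
Log2 expression of each repair gene (rows, ordered by role) on each of the 12 arrays (columns) minus the mean of that gene over the arrays. Parental culture replicate 2 is the highest of its group in 27 of 33 genes and spheroid culture replicate 1 the lowest of its group in 26.

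The heatmap of all genes shows the columns that differ within a group as well as the groups. The median SD of the genes was 0.37 in parental culture, 0.31 in spheroid culture, 0.22 in the parental xenografts and 0.14 in the spheroid ones. Over all genes it was 0.32, 0.19, 0.20 and 0.16.

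Other repair genes came from lists for the same pathways, of which 132 of 143 genes were represented. Against parental culture 7 of the 132 (5.30%) fell and none rose in spheroid culture, where 2.46% of all genes were called and 1.58% called lower. They were FAAP24 of the Fanconi core complex (-1.08), the damage signalling genes MDC1 (-0.77) and H2AX (-1.05), and the base excision genes NEIL3 (-1.23), APEX2 (-0.65), XRCC1 (-1.07) and FEN1 (-0.84). In parental xenografts 6 fell and 1 rose (5.30% called) against the same parental cultures, where 3.47% of all genes were called. Those that fell were the polymerase gene POLQ (-0.78), FAAP24 (-1.02), H2AX (-1.46), NEIL3 (-0.99), XRCC1 (-1.10) and TDP1 (-0.64), and UVSSA of transcription-coupled repair rose (0.83). H2AX, the histone variant phosphorylated at breaks, had the lowest adjusted p of these in parental xenografts (SE 0.19, limma adjusted p = 0.00250). Without parental culture replicates 1 and 2, all of these genes kept their sign. Those that fell then ran from -0.59 (APEX2) to -1.11 (H2AX) in spheroid culture. They ran from -0.69 (POLQ) to -1.53 (H2AX) in parental xenografts, where UVSSA was 0.93.

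By pathway, base excision and strand break repair held 4 of the 7 calls in spheroid culture (18 genes represented) and 3 of the 6 lower calls in parental xenografts. Of 35 other recombination genes, POLQ in parental xenografts was the 1 called. The other lists for end joining (10 genes), mismatch repair (7) and direct reversal with translesion synthesis (14) held no call in any comparison. None of the 132 was called between the xenograft types, between spheroid xenografts and spheroid culture, or in the interaction, where 8, 12 and 14 had an unadjusted p under 0.05. The medians over the 132 were -0.06 in spheroid culture and -0.08 in parental xenografts against parental culture. Of 15 p53 target genes, SESN2 fell in parental xenografts (-1.34, SE 0.33, limma adjusted p = 0.0489) and none was called in the other comparisons. Without parental culture replicates 1 and 2 the SESN2 difference was -0.99.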

How the data were processed

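For each of 12 samples in 4 groups of 3, 2 µg of total RNA was labelled with a one-cycle kit for an Affymetrix HG-U133 Plus 2.0 array, per the labels' protocols. The deposited table gives log2 expression for every probe set, and the submitters' processing notes name RMA and the package affy. The tool versions, and whether RMA was run on all arrays at once, are not stated in the sources used here. That the values are log2 was judged from their range.

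Of 54675 probe sets, 62 were controls, 41091 carried 1 gene symbol and 1801 several. Symbols were updated by gene number for 41037 probe sets through a GRCh38.p14 gene table. Each of 19775 genes was read from its 1-symbol probe set with the highest mean, with no filter on low values. A linear model with 1 mean per group (8 residual degrees of freedom) was fitted in R 4.3.3 with limma 3.58.1 and moderated with eBayes. The 5 comparisons were tested two-sided, with Benjamini-Hochberg adjustment over all genes and calls at an adjusted p under 0.05. The median SE was 0.20 for a difference and 0.29 for the interaction, and the number of arrays limits this precision. With 3 arrays against 3, the smallest p of an exact permutation test is 0.1, so no such test was used for single genes. The fit was tested on simulated data.

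The genes, lists and tests were chosen with earlier results of these data known. Genes described array by array were those called, and per comparison the 3 of lowest p whose groups did not overlap. Other repair, p53 target, proliferation and cell type marker lists were kept as counts. Alternatives covered normalisation, probe set choice, a dim filter, the samples fitted, the variance model, the replicate block and single arrays left out. The labels do not say what shared replicate numbers mean. Every same-numbered pair of arrays correlated in its deviations from the group means, over 0.1, between spheroid culture and spheroid xenografts (0.333 to 0.431) and between the xenograft types (0.182 to 0.482). The numbers were taken to pair these groups, a pairing inferred from these same data. Arrays of unlike number reached 0.0452 between spheroid culture and spheroid xenografts and 0.255 between the xenograft types. Over all groups they reached 0.636, so the pairing is uncertain. Testing each probe set on its own, and leaving out parental culture replicates 1 and 2 for genes of the other lists and for single probe sets, were added after the data were seen.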

Additional observations from a re-analysis of the deposited data

Results flagged for a closer look

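The spheroid to parental difference of XRCC3 in xenografts minus that in culture was 1.52 on the log2 scale (SE 0.22, limma adjusted p = 0.0340), which is a test of the difference between the effects of spheroid origin in the 2 settings. In culture the 3 spheroid arrays lay below the 3 parental arrays, as in 6.56% of all genes, by -1.22 (limma adjusted p = 0.00436). In xenografts the 3 spheroid arrays lay above the 3 parental arrays, as in 9.30% of all genes. That xenograft difference was 0.30 and was not called (limma adjusted p = 0.807). The call was kept in 5 of the 12 fits that left out 1 array. It was lost with the replicate block and with each array centred on its median (adjusted p = 0.0805). Without parental culture replicates 1 and 2 the interaction was 1.39.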

How the results depend on the processing

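The number of repair genes called depended on the processing between spheroid and parental culture and between parental xenografts and parental culture (1 each). Between the cultures it was 4 with quantile normalisation again (5.54% of all genes called) and with quantile normalisation within culture and within xenografts (5.4%). It was also 4 with cyclic loess (4.91%) and with the interquartile range as a covariate (8.85%). It was 7 with array quality weights (10.6%) and 3 with each probe set tested on its own (1.65% of probe sets). With the mean of all probe sets it was 2 (2.43%), and with only the groups compared 0 (0.0759%). Between parental xenografts and culture it was 4 with quantile normalisation again (5.96% of all genes called) and with cyclic loess (5.52%). It was 3 with quantile normalisation within each setting (6.47%) and with the interquartile range (9.61%), and 7 with array quality weights (11.8%). With the mean of all probe sets it was 2 (3.26%), and 2 with each probe set on its own (2.45% of probe sets). Without _x_at and _s_at probe sets it was 0 (2.58%). Array quality weights gave 1 between the xenograft types (6.1% of all genes called) and 3 between spheroid xenografts and culture (4.63%). The interquartile range gave 1 between spheroid xenografts and culture (1.03%). In the interaction it was 2 with each probe set on its own (0.0803% of probe sets called). It was 0 with median centring (0.0405% of all genes) and without _x_at and _s_at probe sets (0.105%). The last setting has no probe set for XRCC3, and between the cultures it called ERCC1 instead. Leaving out each array gave 1 to 4 between the cultures, 1 to 2 between parental xenografts and culture, 0 to 1 in the interaction, and 0 to 0 in the other comparisons. The count of 4 came without parental culture replicate 1, where 4.31% of all genes were called. The counts of 2 came without that array (3.92%) or without spheroid culture replicate 1 (3.61%). The OGG1 difference between xenograft types reversed to 0.157 without _x_at and _s_at probe sets. The median interaction over the genes was 0.344 without parental culture replicate 1 and 0.10 with all arrays. The causes were not tested.

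Replicate numbers did not pair the samples where parental culture is compared: same-numbered arrays had correlations of their deviations from -0.565 to 0.333. With the replicate block the interaction called 0 (0.0607% of all genes) and parental xenografts against culture 2 (3.17%). With the replicate block and only the groups compared, 0 were called between the cultures (0.111% of all genes) and 0 between parental xenografts and culture (0.344%). Between spheroid xenografts and culture 1 was called (2.99%) in that fit. In that fit XRCC3 had adjusted p = 0.0942 between the cultures and 0.125 between parental xenografts and culture. With only the groups compared and no block it was 0.0652 between the cultures. In the interaction, XRCC3 had adjusted p = 0.0805 with median centring and 0.0574 with the replicate block.

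The calls over all genes ranged from 15 to 2095 between the cultures and from 68 to 2343 between parental xenografts and culture over the settings.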
